A study of Homo sapiens with 2 samples.

Results

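NRF2 (gene NFE2L2), its inhibitor KEAP1 and 7 of its antioxidant target genes were followed in CWR22rv1 cells with and without Akt1 and Akt2. The 9 genes, chosen by symbol, were NFE2L2, KEAP1, NQO1, HMOX1, GCLC, GCLM, TXNRD1, SRXN1 and SLC7A11, and all 9 were found among the 19607 genes of the expression table. CWR22rv1 is a human prostate cancer line that expresses the androgen receptor. Total RNA was sequenced as 1 library of cells labelled Akt1/2 knockout (Akt1/2 DKO) and 1 library of cells labelled wild type (control). The knockout cells of the study were single-cell clones made with CRISPR/Cas9 guides against both genes and puromycin selection, and the labels do not say which clone was sequenced or what plasmids the control cells received. With 1 library per genotype no difference has a replicate check, no p-value is given, and a clone's own traits and the loss of Akt1/2 cannot be told apart.

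NRF2 is a transcription factor that cells keep scarce by degradation. KEAP1, a sensor with reactive cysteines, presents NRF2 to the CUL3 ubiquitin ligase, and a separate route runs through phosphorylation by GSK3, a kinase that Akt inhibits. When oxidants or electrophiles disable KEAP1, NRF2 accumulates, pairs with a small MAF protein and binds antioxidant response elements in the promoters of genes for glutathione synthesis, thioredoxin reduction, quinone reduction and haem breakdown. The amount of NRF2 protein therefore depends more on its breakdown than on its mRNA, and RNA libraries measure only the latter and the mRNA of the targets.

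Promoter sequences are shown for 4 genes: GCLM, the only member past 1.5-fold, its partner subunit GCLC, and KEAP1 and TXNRD1, the other members with an element in the window. They are RefSeq windows from 250 bases before to 50 after a transcription start (GRCh38.p14), each read 5′ to 3′ in the direction of its gene. The element searched was the core of the antioxidant response element, TGACNNNGC, on both strands, where a match on the other strand reads GCNNNGTCA. Capitals mark the matches, and no other motif was searched. Of the members, 7 had such windows, 10 in all, and HMOX1 and SLC7A11 were not matched. The core lay in 4 of the 10 windows, against 13.3% of all 35116 windows of this length. Both windows of TXNRD1 held it, so by gene it lay in 3 of 7 members, against 16.1% of 27305 genes.
GCLM, chr1:93909381-93909680, minus strand: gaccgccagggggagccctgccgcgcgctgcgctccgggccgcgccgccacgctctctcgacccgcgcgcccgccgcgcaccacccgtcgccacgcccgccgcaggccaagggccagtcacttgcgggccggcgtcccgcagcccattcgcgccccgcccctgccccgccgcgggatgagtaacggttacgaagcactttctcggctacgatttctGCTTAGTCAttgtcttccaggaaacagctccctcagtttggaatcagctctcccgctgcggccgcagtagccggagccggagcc
GCLC, chr6:53545052-53545351, minus strand: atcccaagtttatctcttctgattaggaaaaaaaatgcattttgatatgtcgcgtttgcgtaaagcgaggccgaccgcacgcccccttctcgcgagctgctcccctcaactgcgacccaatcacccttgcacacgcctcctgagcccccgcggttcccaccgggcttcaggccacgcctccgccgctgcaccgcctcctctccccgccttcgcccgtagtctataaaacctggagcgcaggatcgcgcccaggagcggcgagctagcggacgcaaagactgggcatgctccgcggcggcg
KEAP1, chr19:10502722-10503021, minus strand: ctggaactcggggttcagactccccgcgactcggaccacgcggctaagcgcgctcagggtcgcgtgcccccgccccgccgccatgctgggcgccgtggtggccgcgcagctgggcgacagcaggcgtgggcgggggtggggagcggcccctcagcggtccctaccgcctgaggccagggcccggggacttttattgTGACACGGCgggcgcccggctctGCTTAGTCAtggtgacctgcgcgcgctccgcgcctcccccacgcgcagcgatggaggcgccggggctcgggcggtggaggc
TXNRD1, chr12:104286782-104287081, plus strand: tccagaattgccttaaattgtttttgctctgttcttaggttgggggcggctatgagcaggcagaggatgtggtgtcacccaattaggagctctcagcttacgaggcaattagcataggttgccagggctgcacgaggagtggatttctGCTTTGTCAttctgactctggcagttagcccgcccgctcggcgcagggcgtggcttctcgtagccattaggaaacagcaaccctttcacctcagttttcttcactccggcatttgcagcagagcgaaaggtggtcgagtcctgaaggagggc
The match of GCLM begins 34 bases before its start, and those of KEAP1 begin 54 and 31 bases before the transcription start of the window shown. The window of the other listed start of KEAP1 has no match. The window of TXNRD1 shown has a match that begins 102 bases before its start, and the window of its other listed start holds 2 more. The GCLC window shown has no match, which says only that these letters are not in it. A match describes the sequence and is not a measured binding site.

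The libraries were of similar depth, with 9970815 reads in control and 10718634 in Akt1/2 DKO. AKT1 went from 2645 to 591 reads and AKT2 from 2362 to 667, a fall of 4.96-fold and 3.93-fold. Reads of both genes thus remained in the library labelled knockout. Fold changes are ratios of Akt1/2 DKO to control after edgeR's TMM scaling, and the intervals beside them are 95% exact (Clopper-Pearson) intervals that cover counting error only. All 9 prostate luminal markers had reads in both libraries, though KLK3 (PSA), KLK4, STEAP2 and HOXB13 were lower in Akt1/2 DKO. The 8 fibroblast markers held 1043 reads in control and 252 in Akt1/2 DKO, of which VIM had 897 and 84, while 5 leukocyte markers held 6 and 11 reads and 4 endothelial markers 2 and 2. Both libraries are of a cultured cell line, and the part of other cells in the results below was not tested. The expressed genes of chromosome 3 had a median log2 fold change of -0.53, and no member lies on it.

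NRF2 mRNA was at nearly the same level in both libraries. NFE2L2 (ENSG00000116044, chr2:177227595-177392697) had 515 reads in control and 550 in Akt1/2 DKO, a log2 fold change of -0.05 with an interval from -0.23 to 0.12. The interval includes no change and stays within 1.5-fold on both sides. KEAP1 (ENSG00000079999, chr19:10486120-10503741) had 945 and 1178 reads, a log2 fold change of 0.17 with an interval from 0.04 to 0.29. KEAP1 was thus 1.12-fold higher in Akt1/2 DKO, a step that exceeded counting error but was under the study's 1.5-fold limit. Within the pair, NFE2L2 took 35.3% of the reads in control and 31.8% in Akt1/2 DKO, with intervals that overlap (32.8 to 37.8% and 29.6 to 34.1%).

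The genes of glutathione synthesis did not move together. GSS, glutathione synthetase, is not a member and was named after its values were seen. It had 1254 reads in control and 992 in Akt1/2 DKO, 1.40-fold lower (interval 1.29 to 1.52). GCLC, the catalytic subunit of glutamate-cysteine ligase, which makes the first and rate-limiting step, had 686 and 779 reads. Its log2 fold change was 0.03 with an interval from -0.12 to 0.18 (ENSG00000001084, chr6:53497341-53616970). GCLM, the modifier subunit, which lowers the enzyme's need for glutamate and its inhibition by glutathione, had 275 reads in control and 1104 in Akt1/2 DKO (ENSG00000023909, chr1:93885205-93909456). GCLM was 3.62-fold higher in the Akt1/2 DKO library, with an interval from 3.17 to 4.15. Of 10956 genes with 100 or more reads summed over both libraries, 307 (2.8%) were as high or higher in log2 fold change.

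The balance of the ligase subunits differed between the libraries. Measured per length as FPKM, GCLM stood at 7.29 and GCLC at 23.5 in control, a ratio of 0.31. In Akt1/2 DKO they stood at 28.0 and 25.4 FPKM, a ratio of 1.10. As a share of the reads of both subunits, which needs no scaling between libraries, GCLM took 28.6% in control (95% exact interval 25.8 to 31.6%) and 58.6% in Akt1/2 DKO (56.4 to 60.9%). These intervals, which cover counting error in 1 library per genotype, do not overlap. The 10 nearest genes around GCLM with at least 50 reads, 5 on each side, ran from -0.68 to 2.34 in log2 fold change, with a median of 0.19.

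**Figure D1:**
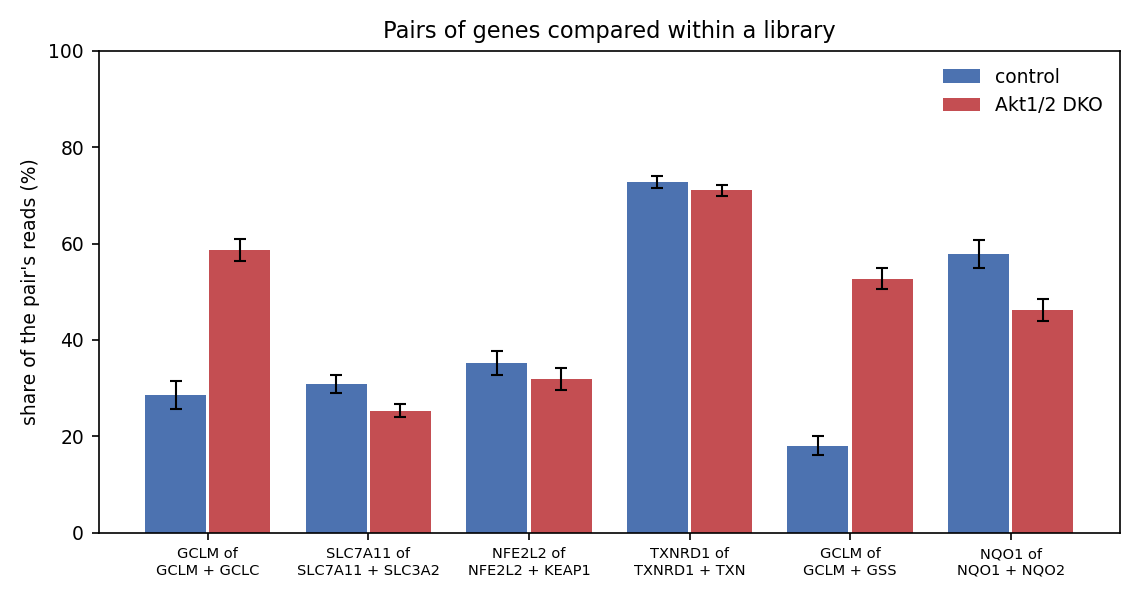
Share of a pair's reads (y axis, percent) taken by the first gene of 6 pairs (x axis) in the control library (blue bars) and the Akt1/2 DKO library (red bars), with 95% exact intervals for counting error. GCLM went from 28.6% to 58.6% of the reads it shares with GCLC, while TXNRD1 kept 72.8% and 71.0% of those it shares with TXN.

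SLC7A11, the cystine carrier subunit of system xc-, which brings in the cysteine for glutathione, had 713 and 1001 reads (ENSG00000151012, chr4:138164097-138242349). Its log2 fold change of 0.34 (interval 0.20 to 0.48) exceeded counting error and did not reach 1.5-fold. SLC7A11 also belongs to the amino acid transporters, and it is placed in the membrane by the heavy chain SLC3A2. SLC3A2, which serves several other carriers too, had 1599 and 2956 reads and was 1.67-fold higher (interval 1.57 to 1.77). SLC7A11 therefore made up 30.8% of the pair's reads in control and 25.3% in Akt1/2 DKO, with exact intervals that did not overlap.

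Neither thioredoxin-related member passed 1.5-fold. TXNRD1, the cytosolic selenoenzyme that reduces thioredoxin, was the highest member in both libraries with 142.8 and 140.8 FPKM. It had 4034 and 4296 reads, a log2 fold change of -0.06 with an interval from -0.12 to 0.004, the narrowest of the 9 (ENSG00000198431, chr12:104215779-104350305). SRXN1, sulfiredoxin, which repairs overoxidized peroxiredoxins, had 1117 and 1418 reads (ENSG00000271303, chr20:646615-653370). Its log2 fold change was 0.20 with an interval from 0.08 to 0.31. The authors' estimate for SRXN1 was not a whole number, as happens where reads are divided among genes, so its reads are less certain than those of the other 8.

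NQO1, the quinone reductase often read as a gauge of NRF2 activity, had 651 and 843 reads (ENSG00000181019, chr16:69706996-69726951). Its log2 fold change was 0.22 with an interval from 0.07 to 0.37, or 1.17-fold higher in Akt1/2 DKO. NQO2, a related quinone reductase named after its values were seen, had 473 and 984 reads and was 1.88-fold higher, so NQO1 made up 57.9% of the pair's reads in control and 46.1% in Akt1/2 DKO. HMOX1, the inducible haem oxygenase, was the least abundant member with 72 reads in control and 57 in Akt1/2 DKO (ENSG00000100292, chr22:35380361-35394214). Its log2 fold change of -0.49 had an interval from -1.01 to 0.04. That interval spans both no change and values past 1.5-fold lower, so the depth does not settle whether HMOX1 differed.

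**Figure D2:**
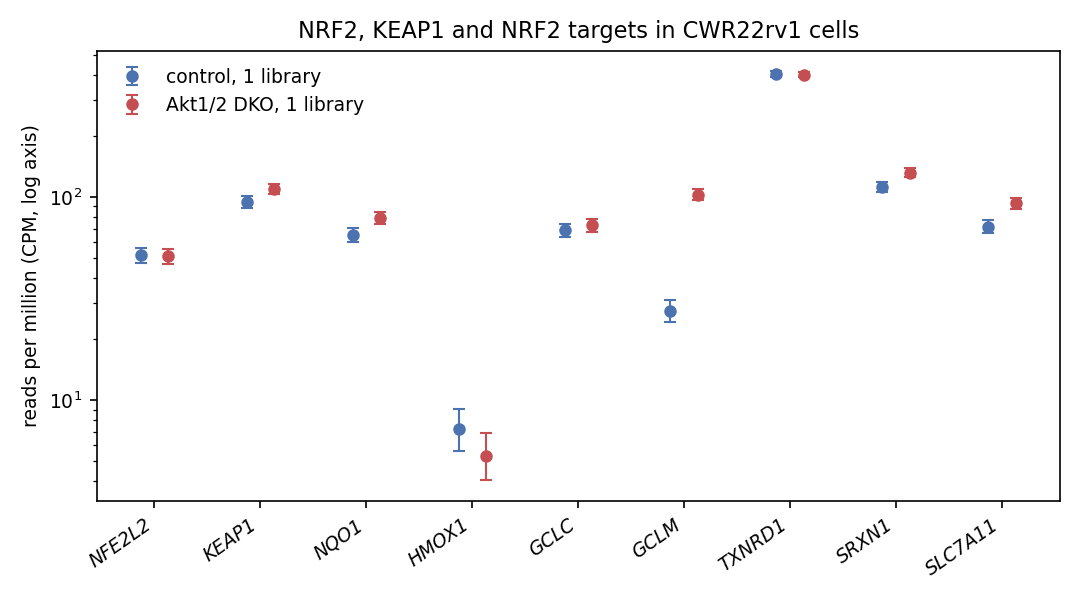
CPM (reads scaled to library size, y axis, log scale) of the 9 members (x axis) in the control library (blue) and the Akt1/2 DKO library (red), with bars for 95% exact Poisson intervals. GCLM went from 27.6 to 103 CPM, and the intervals of NFE2L2, HMOX1, GCLC and TXNRD1 overlap between the libraries.

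Of the 9 members, 1 was at least 1.5-fold higher and 0 were at least 1.5-fold lower in Akt1/2 DKO. Over the 13318 genes that reached 10 reads in total, 30.9% passed 1.5-fold, 15.9% as higher and 15% as lower. Over the genes that reached 100 reads in total, as all 9 members did, 23.2% passed, 11.3% as higher and 11.9% as lower. A count of 1 in 9 is near these shares, so it is no result about the members as a set. The median log2 fold change of the members was 0.17, against 0.01 over all 13318 genes. For 5 members, GCLM, SLC7A11, NQO1, SRXN1 and KEAP1, the interval lay above 0, and it lay below 0 for none. Of the 10956 genes with 100 or more reads in total, the interval lay above 0 for 30.6% and below 0 for 31.7%.

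**Figure D3:**
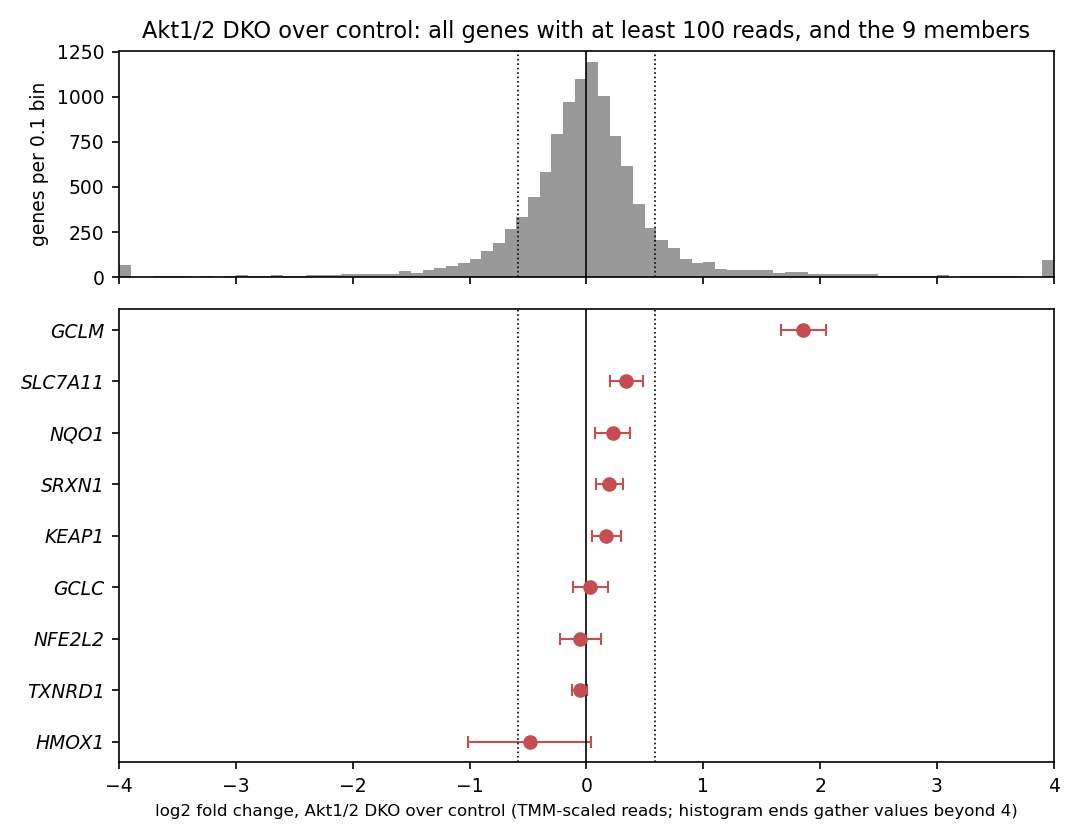
Top, number of genes with at least 100 reads (y axis) per bin of log2 fold change, Akt1/2 DKO over control (x axis). Bottom, the 9 members (y axis) with 95% exact counting intervals on the same x axis. Dotted lines mark 1.5-fold, and GCLM at 1.86 is the member beyond them.

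The order of the members by FPKM differed between the libraries in the place of GCLM and its neighbours. In control it ran TXNRD1, NQO1, SRXN1, KEAP1, GCLC, NFE2L2, SLC7A11, GCLM and HMOX1, and the counting intervals of the neighbours SLC7A11 (7.36 FPKM) and GCLM (7.29 FPKM) overlapped. In Akt1/2 DKO, GCLM followed KEAP1 at 28.0 FPKM, with an interval that overlapped that of GCLC at 25.4 FPKM. NFE2L2 followed at 18.8, SLC7A11 at 9.62 and HMOX1 at 2.90 FPKM. All other neighbours were apart by more than counting error, which does not include error in transcript length.

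The wider pathway was described with 71 genes in 7 lists, of which 67 reached 10 reads in total. Of these 67, 14 were at least 1.5-fold higher and 14 at least 1.5-fold lower in Akt1/2 DKO, and their median log2 fold change was 0.003. Over all 13318 tested genes the shares were 15.9% and 15%, with a median of 0.01. Over genes with at least 100 reads in total, as most list genes had, they were 11.3% and 11.9%. Both pairs of shares are the background for the count of each list below. Without the 4 list genes on chromosome 3 the counts were 14 and 12 of 63.

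Among 14 genes that control NRF2 stability or share its DNA sites, 4 were higher and 2 lower. The small MAF proteins, which NRF2 needs to bind DNA, were all above control. MAFF went from 48 to 173 reads (3.25-fold, interval 2.35 to 4.57), and MAFK from 451 to 936 (1.87-fold, 1.67 to 2.10). The estimates for MAFK were not whole numbers. MAFG went from 668 to 938 (1.27-fold, 1.15 to 1.40), under the 1.5-fold limit. NFE2L3, a relative of NRF2, had 46 and 126 reads (2.47-fold higher). BACH2, a repressor of the same sites, had 1 and 42 reads, and was named after its values were seen. Its relative BACH1, which represses HMOX1, had 144 and 181 reads, with a log2 fold change of 0.18 and an interval from -0.14 to 0.51. CUL3, the ligase scaffold for KEAP1, had 928 and 1068 reads, a log2 fold change of 0.05 (-0.07 to 0.18). SQSTM1 (p62), which can draw KEAP1 into autophagy, went from 1909 to 1358 reads (1.56-fold lower, 1.45 to 1.67), by an estimate that was not a whole number. GSK3B went from 1715 to 1172 reads, 1.62-fold lower (1.51 to 1.75). GSK3B lies on chromosome 3, where its 10 nearest expressed genes had a median of -0.64, and with the authors' FPKM its log2 fold change was -0.51, short of 1.5-fold.

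Among 12 genes of glutathione synthesis and use, 11 were tested, with 4 higher and 3 lower. GLRX2, a mitochondrial glutaredoxin, had 78 and 183 reads (2.12-fold higher), and GGT1, which breaks down glutathione outside the cell, had 266 and 546 (1.85-fold higher). The control estimate for GGT1 was not a whole number. GSR, glutathione reductase, was level with 3739 and 4153 reads, a log2 fold change of 0.003 and an interval from -0.06 to 0.07. The lower genes, named after their values were seen, were GLRX (84 to 4 reads), GPX3 (49 to 2) and GPX1 (2063 to 1372), which lies on chromosome 3.

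In the list of 11 thioredoxin and peroxiredoxin genes, 1 was higher and 1 lower. PRDX3, the mitochondrial peroxiredoxin, had 2290 and 4588 reads (1.81-fold higher, 1.72 to 1.90). TXNIP, which binds and inhibits thioredoxin, had 2618 and 1780 (1.63-fold lower, 1.53 to 1.73). TXN, thioredoxin itself, had 1508 and 1754 reads, a log2 fold change of 0.07 (-0.03 to 0.17). TXNRD3 had 246 and 195 reads, a log2 fold change of -0.48 (-0.76 to -0.21), and lies on chromosome 3. Its estimates were not whole numbers.

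Of 7 genes of haem breakdown and iron storage, 1 was higher and 2 were lower. BLVRA, which reduces the biliverdin that haem oxygenase makes, had 235 and 482 reads (1.85-fold higher, 1.58 to 2.17). SLC40A1, the iron exporter ferroportin, went from 97 to 11 reads (9.78-fold lower, 5.23 to 20.2). FTH1, the heavy chain of ferritin, went from 7943 to 5611 reads (1.57-fold lower, 1.52 to 1.62), and FTL, the light chain, from 2471 to 2971 (1.08-fold higher, 1.03 to 1.14). FTH1 has many processed pseudogenes that can share its reads, and its estimates were not whole numbers.

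None of the 6 genes of NADPH supply passed 1.5-fold in reads, against 30.9% of all tested genes in either direction. Of the genes with at least 100 reads in total, as all 6 had, 23.2% passed. PGD had 1969 and 2693 reads, a log2 fold change of 0.30 (0.22 to 0.39). TKT, on chromosome 3, had 7437 and 6150 reads, a log2 fold change of -0.42 (-0.47 to -0.37). ME1, malic enzyme, had 107 and 143 reads, a log2 fold change of 0.27 with an interval from -0.10 to 0.64.

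A further list held 16 detoxification genes that NRF2 is known to induce or that serve the same reactions. Of 13 tested, 2 were higher and 5 lower, against 15.9% higher and 15% lower over all tested genes. Over those with at least 100 reads in total, as all 13 had, the shares were 11.3% and 11.9%. Among all list genes with 100 or more reads in total, the largest differences were those of 3 aldo-keto reductases. AKR1C2 went from 540 reads in control to 3 in Akt1/2 DKO, a ratio of 200 with an interval from 67.9 to 971. AKR1C1 went from 117 to 2 reads (64.9-fold lower, 17.6 to 542), and AKR1C3 from 295 to 21 (15.6-fold lower), a log2 fold change of -3.96 with an interval from -4.67 to -3.32. These 3 near-identical neighbours on chromosome 10 reduce steroids and carbonyl compounds, and their estimates are not whole numbers, so their reads cannot be fully told apart. The other genes past 1.5-fold, named after their values were seen, were UGDH (2561 to 1137 reads) and OSGIN1 (69 to 42) among the lower and NQO2 and CBR3 (90 to 208) among the higher.

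Among 5 enzymes of superoxide and peroxide removal, 2 were higher and 1 lower. CAT, catalase, went from 1519 to 579 reads (2.91-fold lower, 2.64 to 3.21). CCS, the copper chaperone of SOD1, had 109 and 186 reads (1.54-fold higher, 1.21 to 1.97), while SOD1 itself had 2181 and 2248, a log2 fold change of -0.11 (-0.19 to -0.02). SOD3, named after its values were seen, had 1 and 17 reads.

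**Figure D4:**
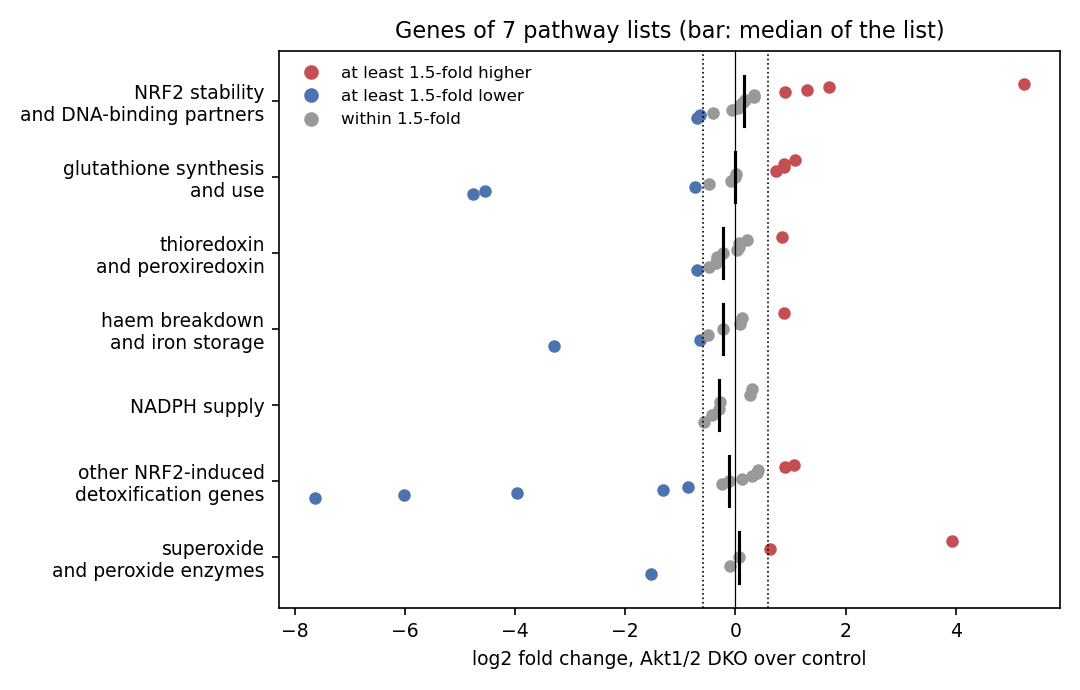
Log2 fold change of the 67 tested list genes (points), Akt1/2 DKO over control (x axis), in 7 lists (y axis), with each list's median as a black bar and dotted lines at 1.5-fold. Red points are at least 1.5-fold higher and blue points at least 1.5-fold lower. The 3 lowest points of the detoxification list are AKR1C2, AKR1C1 and AKR1C3.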

How the data were processed

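RNA from 1 Akt1/2 DKO and 1 control library of CWR22rv1 cells was analysed. For each gene the deposited table holds an estimated count for either library, not normalized, and the FPKM that the authors derived from transcript length and library size. Per the labels, processing involved fastp 0.20.0, TopHat, Cufflinks, edgeR and the build GRCh38.p10, with no role given for each, and the counting tool, annotation and strand setting are not given in the sources used here. The authors' fold changes, p-values, marked genes, ontology counts and library correlation were not used.

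Counts were rounded, the 13318 of 19607 genes that reached 10 reads in total were kept, and TMM factors came from edgeR 4.0.16 (R 4.3.3). The exact intervals (scipy 1.17.1) cover counting error only. A library at 0 reads would be set to the floor of 3 reads (0.301 CPM in control, 0.28 in Akt1/2 DKO), 1 read or more was taken as counted, and no fold was formed against 0 where the other library had 3 reads or fewer. The members and lists were chosen with earlier results of these data known. Genes named were the members, AKT1, AKT2, 12 list genes fixed by name and, per list, the 3 largest changes with at least 100 reads, and others are marked as named after their values were seen. The value of 1 of these genes is not reported here. Positions are those of GENCODE release 29 (GRCh38). The steps were tested on simulated data. The alternatives were other library scalings (DESeq2 1.42.0 among them), FPKM, read filters, a 2-fold limit, intervals and a prior count.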

Additional observations from a re-analysis of the deposited data

How the results depend on the processing

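The count of members past 1.5-fold, 1 higher and 0 lower, was the same under all 10 alternatives, and GCLM ran from 1.85 to 1.94 in log2 fold change over scalings, FPKM and prior count. Over those settings SLC7A11 ran from 0.34 to 0.39, NQO1 from 0.19 to 0.28, and no member changed sign. A 2-fold limit left 6 list genes higher and 8 lower, and over all genes 1333 higher and 1058 lower, since it asks for a larger difference. Without the list genes on chromosome 3, a choice made once the values were known, 14 were higher and 12 lower. With the authors' FPKM, AKT1 was at -2.66, CUL3 at -0.11 and BACH1 at 0.52, and the cause was not tested. Depth limits HMOX1, whose 72 and 57 reads leave the direction undetermined, and BACH2, GLRX, GPX3, AKR1C1, AKR1C2 and SOD3, whose ratios rest on 1 to 4 reads in the lower library. No paired analysis was possible because there is 1 library per genotype and no shared replicate.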

Other observations

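The match in the GCLM promoter and the second match of the KEAP1 window were the same 9 bases, GCTTAGTCA, which read TGACTAAGC on the other strand. These letters, looked up after the match was seen, stood on either strand in 36 of 35116 promoter windows (0.103%), and among the members in those of GCLM and KEAP1. In the libraries GCLM was 3.62-fold and KEAP1 1.12-fold higher in Akt1/2 DKO. The letters were taken from the GCLM match, so the place of GCLM among these windows was fixed in advance. The folds of the other genes of these windows are not given, and a link between the letters and expression was not tested. Over the other list genes, the core lay in 14 of 85 windows (16.5%), against 13.3% of all windows. By gene it lay in 14 of the 57 list genes with such windows (24.6%), against 16.1% of all genes. Of the 14 list genes with the core, 13 were tested. Of these, 4 were at least 1.5-fold higher in Akt1/2 DKO (MAFF, SLC3A2, GGT1 and CCS), 0 at least 1.5-fold lower and 9 within 1.5-fold. Over all 13318 tested genes, 15.9% were higher and 15% lower. Over those with at least 100 reads in total, as all 13 had, the shares were 11.3% and 11.9%. With 13 genes these counts are no result about genes with the core.

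The low reads of AKR1C1, AKR1C2 and AKR1C3 were not shared by every gene around them. Among the 10 nearest genes with at least 50 reads around AKR1C3, which include the other AKR1C genes, log2 fold changes ran from -7.64 to 0.33 with a median of -0.31. All expressed genes of chromosome 10 had a median of 0.06.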
